A study of Mus musculus with 20 samples.

Results

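A set of 8 genes that mark mast cells, basophils and eosinophils was followed in mouse hematopoietic stem cells (HSCs): Ms4a2, Fcer1a, Cpa3, Mcpt8, Prss34, Hdc, Prg2 and Epx. They were taken from a fixed list of symbols matched to the Ensembl identifiers of the count files, and all 8 were found among 49671 gene identifiers. The list was drawn up with results of these data known, including the difference in counts between Kdm6b-KO and Control, so the RNA differences of the 8 genes are given as a description and not as a test. HSCs were sorted as Lin-, cKit+, Sca1+, CD150+ and CD48- bone marrow cells of C57BL/6 mice aged 8 weeks. Control animals were Vav-CRE:Kdm6b+/+ and Kdm6b-KO animals Vav-CRE:Kdm6bfl/fl, so both groups carried the Cre driver, which is active throughout blood formation, and loss of the histone demethylase Kdm6b was not limited to HSCs. Each of the 3 Control and 3 Kdm6b-KO RNA libraries came from marrow pooled from 3 male and 3 female mice, and is called a biological replicate in the labels. Open chromatin was mapped by ATAC-seq, in which a transposase cuts accessible DNA, in 3 libraries titled Control and 3 titled 6bKO, each from 10000 sorted HSCs. The genotype field reads wild-type for all 6 ATAC libraries, so these groups rest on the titles alone.

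Mast cells, basophils and eosinophils are rare granulocytes of type 2 immunity that arise from HSCs through progenitors expressing GATA factors. Mast cells and basophils carry the high-affinity receptor for IgE, whose crosslinking releases granules loaded with proteases and histamine. Eosinophil granules hold cationic toxic proteins. Transcripts of all 3 cell types are normally low or absent in a pure HSC population, although some progenitor cells begin to express a few of them.

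Counts assigned to genes ranged from 6793873 to 19336121 per RNA library, so that 3 counts, taken here as the floor of detection, were worth 0.148 to 0.461 CPM (counts scaled to a common library size with edgeR's TMM factors). Kdm6b itself had 198.3 ± 97.2 CPM in the Control libraries, and 178.6 ± 31.8 CPM in those of Kdm6b-KO (SD, n = 3 each), whole-gene counts that do not check the deletion. The 14 genes examined for the HSC sort and stem and progenitor identity all had counts in every library. These included Kit, which the sort selected for, but also Cd48, which it selected against, at 55 to 163 counts, and Flt3, a gene of later progenitors, at 169 to 893 counts. The 14 summed to 4325 to 6983 CPM in the Control libraries, and 4914 to 5397 CPM in those of Kdm6b-KO. Marker genes of maturing neutrophils were also present, and unevenly so. Their 14 genes summed to 3811, 1231 and 2180 CPM in Control replicates 1 to 3, against 4493, 201 and 198 CPM in the Kdm6b-KO replicates. Kdm6b-KO replicate 1 therefore stood apart from the other Kdm6b-KO libraries. In bulk RNA of this kind, a smaller number of cells of a type and less RNA per cell cannot be told apart. CPM is not scaled to transcript length, so a level is compared between libraries for 1 gene. Shares of a summed CPM are shares of counts and not of transcripts.

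Promoter windows of 300 bases (250 before to 50 after the annotated start, RefSeq, GRCm38.p6, the assembly of mm10) were found for 7 of the 8 genes, the exception being Prg2. The sequences below are the 3 windows that carried an ATAC peak in at least 1 library, those of Cpa3, Mcpt8 and Hdc, and that of Ms4a2, the gene with the largest RNA difference among those tested, which carried none and was added after its values were seen. Capitals mark matches to the letters bound by GATA factors, for which both strands were searched. The motif spelled AGATAA was searched first, followed by the variants spelled TGATAA, then by the ones spelled AGATAG, then lastly by those spelled TGATAG. A capital run that begins with TT is a match on the opposite strand. All 4 lie on the minus strand and are printed 5′ to 3′ along the gene.
Ms4a2: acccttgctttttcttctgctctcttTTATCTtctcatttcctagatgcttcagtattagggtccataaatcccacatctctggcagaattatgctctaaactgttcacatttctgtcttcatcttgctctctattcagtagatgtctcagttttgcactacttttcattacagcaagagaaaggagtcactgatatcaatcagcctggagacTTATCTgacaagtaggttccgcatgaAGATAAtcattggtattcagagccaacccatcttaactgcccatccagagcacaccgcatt
Cpa3: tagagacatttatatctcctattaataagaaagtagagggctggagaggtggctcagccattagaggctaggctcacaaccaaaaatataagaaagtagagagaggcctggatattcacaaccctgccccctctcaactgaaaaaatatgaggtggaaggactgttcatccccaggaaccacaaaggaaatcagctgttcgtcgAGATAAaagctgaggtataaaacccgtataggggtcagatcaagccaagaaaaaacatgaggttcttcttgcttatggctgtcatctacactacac
Mcpt8: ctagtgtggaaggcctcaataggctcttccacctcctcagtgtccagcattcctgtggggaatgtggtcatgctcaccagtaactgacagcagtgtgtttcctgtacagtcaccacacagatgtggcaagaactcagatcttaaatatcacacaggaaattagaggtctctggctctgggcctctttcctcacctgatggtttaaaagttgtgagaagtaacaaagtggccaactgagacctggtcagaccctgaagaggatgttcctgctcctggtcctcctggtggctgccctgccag
Hdc: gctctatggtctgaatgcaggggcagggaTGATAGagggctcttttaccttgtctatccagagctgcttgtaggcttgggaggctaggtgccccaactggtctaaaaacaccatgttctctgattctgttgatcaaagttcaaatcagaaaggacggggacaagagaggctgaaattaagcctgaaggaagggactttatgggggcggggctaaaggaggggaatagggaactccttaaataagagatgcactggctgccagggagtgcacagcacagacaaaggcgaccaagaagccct

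The Ms4a2 window (chr19:11623670-11623969) held 3 matches, the first base of each lying 224, 37 and 11 bases before the start. The Cpa3 window (chr3:20242132-20242431) held 1 match, 46 bases before the start. The Hdc window (chr2:126618629-126618928) held 1 match, 221 bases before the start, and the Mcpt8 window (chr14:56085148-56085447) held none. Of the windows not printed, Fcer1a and Prss34 held 1 match each and Epx none, so 5 of 7 held at least 1. Among all 32851 RefSeq promoter windows of the same length, 29.8% held a match and 7.77% held 2 or more. These are letter matches in 1 window per gene and not measured binding sites.

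Of the 6 genes that passed the filter on low counts, Ms4a2 and Cpa3 were lower in every Kdm6b-KO library than in every Control library, as were 9.49% of all genes tested. Ms4a2 encodes the beta chain of the IgE receptor, which amplifies its signal (chromosome 19, 11615517 to 11623790). It had 29, 17 and 20 counts in Control replicates 1, 2 and 3 and 4, 1 and 1 counts in Kdm6b-KO, or 4.45, 2.16 and 1.46 CPM against 0.350, 0.109 and 0.0495 CPM. The groups did not overlap, and 2 of the 3 Kdm6b-KO libraries were below the floor of 3 counts. Over the group, 66 counts stood against 6, a depth-scaled ratio of Kdm6b-KO to Control of 0.0625 with an exact 95% binomial interval of 0.0221 to 0.143. The interval covers counting error only. In the fit over all genes the log2 fold change of Ms4a2 was -3.99 (SE 0.84).

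Cpa3, carboxypeptidase A3 of mast cell and basophil granules, lies on chromosome 3 (20215616 to 20242209). It was the member with the steadiest values, at 15.97, 16.3 and 10.4 CPM in the Control libraries, and 7.60, 6.32 and 4.80 CPM in those of Kdm6b-KO, each from 58 to 142 counts. The group means were 14.2 ± 3.32 and 6.24 ± 1.41 CPM (SD, n = 3 each), 2.28-fold apart, and the log2 fold change was -1.19 (SE 0.32). Leaving out any 1 library kept this ratio between 2.04 and 2.58, whereas that of Ms4a2, 15.9 from the group means, ranged from 10.7 to 34.0, the highest value being without Kdm6b-KO replicate 1. Cpa3 is therefore the gene of the 8 whose difference depended least on a single library. The summed level of 14 red cell markers, mostly Car2, was also lower in every Kdm6b-KO library, at 4507 to 5641 CPM against 8279 to 11205 CPM, and its part in the Ms4a2 and Cpa3 values was not tested. Of these markers 13 were tested, 10 with a negative and 3 with a positive log2 fold change, and 0 were called. Over all genes tested, 50.1% were negative and 0.461% were called. Hbb-bt, 1 of the 3, was higher in every Kdm6b-KO library, at 22.2, 20.05 and 12.6 CPM against 10.75, 5.21 and 10.2 CPM.

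Fcer1a encodes the alpha chain, the part of the receptor that holds IgE (chromosome 1, 173221269 to 173227232). It had 7, 1 and 8 counts in Control and 7, 6 and 8 in Kdm6b-KO, or 0.596 ± 0.474 and 0.554 ± 0.139 CPM (SD, n = 3 each). The groups overlapped, and the gene was too low to enter the fit. Fcer1g, the signalling chain that the IgE receptor shares with other Fc receptors, was far above the floor at 67.1 ± 22.6 CPM in the Control libraries, and 77.2 ± 18.2 CPM in those of Kdm6b-KO, a log2 fold change of 0.20 (SE 0.25) that was not called (edgeR adjusted p = 0.745). The 3 chains of the receptor thus gave different patterns in these libraries, with Ms4a2 lower in Kdm6b-KO and the values of Fcer1a and Fcer1g overlapping between the groups.

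**Figure D1:**
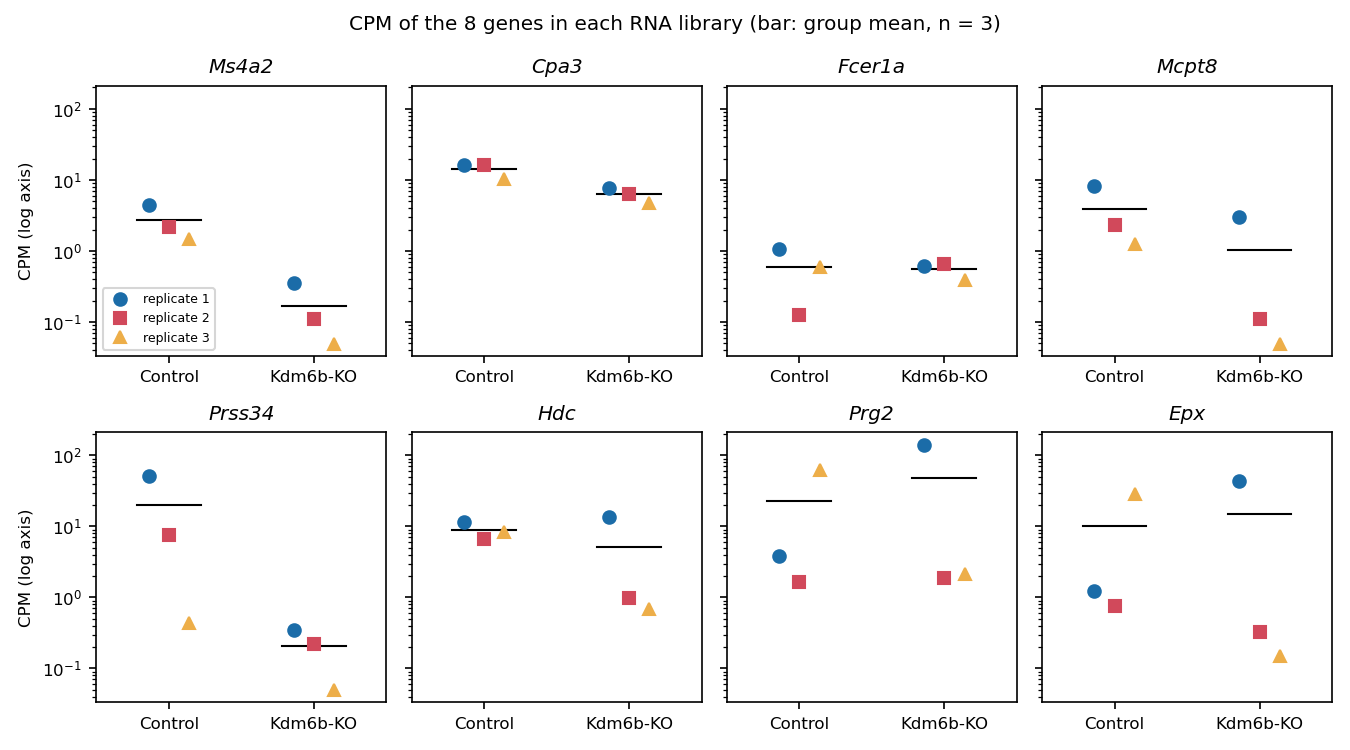
CPM (log axis) of each of the 8 genes in the 3 Control and 3 Kdm6b-KO RNA libraries. Points are libraries, with symbols for the replicate number, and bars are group means. Ms4a2, Cpa3 and Prss34 do not overlap between the groups, and Prg2 and Epx are high in Control replicate 3 and Kdm6b-KO replicate 1.

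The basophil proteases varied far more among replicates. Prss34, a serine protease of basophils (chromosome 17, 25298394 to 25300168), had 334, 60 and 6 counts in the Control libraries, or 51.3, 7.62 and 0.438 CPM. It had 4, 2 and 1 counts in Kdm6b-KO, or 0.350, 0.218 and 0.0495 CPM. The groups did not overlap, but Control replicate 3 lay just above Kdm6b-KO replicate 1, and Control replicate 1 exceeded Control replicate 3 by 117-fold. The sum of 400 counts against 7 gave a ratio of 83.1 in favour of Control (exact 95% binomial interval 40.0 to 208.1, counting error only). That interval does not cover the spread between replicates, since the ratio of group means, 96.2, fell to 19.6 without Control replicate 1 and was 148 without Kdm6b-KO replicate 1. Prss34 passed the count filter in too few libraries to be fitted.

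Mcpt8, a protease that marks basophils (chromosome 14, 56082163 to 56085499), had 8.14, 2.29 and 1.24 CPM in Control. It had 2.97, 0.109 and 0.0495 CPM in Kdm6b-KO, where replicate 1 held 34 counts and the other libraries 1 each. Kdm6b-KO replicate 1 lay above Control replicates 2 and 3, so the groups overlapped (log2 fold change -1.89, SE 1.36). The ratio of Control to Kdm6b-KO means was 3.73 with all libraries, 49.1 without Kdm6b-KO replicate 1 and 1.69 without Control replicate 1.

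Hdc encodes histidine decarboxylase, the enzyme that makes histamine (chromosome 2, 126593659 to 126624025). Its 11.5, 6.73 and 8.26 CPM in Control were close together, while Kdm6b-KO had 13.7, 0.981 and 0.693 CPM. Kdm6b-KO replicate 1 was the highest of the 6 libraries and the other Kdm6b-KO libraries were the lowest. The log2 fold change was -0.79 (SE 1.18), and the ratio of Control to Kdm6b-KO means went from 1.72 to 10.6 when Kdm6b-KO replicate 1 was left out. Across libraries, Hdc and Mcpt8 together had 19.7, 9.02 and 9.50 CPM in the Control libraries, and 16.7, 1.09 and 0.742 CPM in those of Kdm6b-KO. The neutrophil sum given above was likewise high in Kdm6b-KO replicate 1 and low in the other Kdm6b-KO libraries, and its part in the Hdc and Mcpt8 values was not tested. Of the 14 neutrophil markers, 13 entered the fit, 12 of them with a negative log2 fold change and 0 called. Over all genes tested, 50.1% were negative and 0.461% were called. Ngp and Mpo, the most abundant, had 1151 and 1094 CPM in Kdm6b-KO replicate 1, against 323.8 to 1205 and 356.9 to 772.8 CPM in Control. Kdm6b-KO replicates 2 and 3 had 27.7 and 26.9 CPM of Ngp, and 55.9 and 20.3 CPM of Mpo. For these genes the negative sign thus came from those replicates. In Kdm6b-KO replicate 3, 2 of the 14 had 0 counts, and in the other libraries none did.

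The eosinophil granule genes differed more among replicates than between the groups. Prg2 encodes the major basic protein (chromosome 2, 84980461 to 84983632) and had 3.84, 1.65 and 62.5 CPM in the Control libraries, and 141.0, 1.85 and 2.13 CPM in those of Kdm6b-KO. Epx encodes eosinophil peroxidase and lies on chromosome 11 (87863997 to 87875536), 18.4 Mb from Kdm6b. It had 1.23, 0.762 and 28.6 CPM in the Control libraries, and 44.0, 0.327 and 0.148 CPM in those of Kdm6b-KO. For both genes Control replicate 3 and Kdm6b-KO replicate 1 were high and the other 4 libraries low. Within Control, replicate 3 exceeded the next library by 16.3-fold for Prg2 and 23.3-fold for Epx. Within Kdm6b-KO, replicate 1 exceeded the next library by 66.3-fold for Prg2 and 135-fold for Epx.

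The log2 fold changes of 1.05 for Prg2 (SE 2.29) and 0.47 for Epx (SE 2.40) were thus smaller than their errors. Without Control replicate 3 the Kdm6b-KO means were 17.6-fold (Prg2) and 14.9-fold (Epx) those of Control. Without Kdm6b-KO replicate 1 the Control means were 11.4-fold (Prg2) and 43.0-fold (Epx) those of Kdm6b-KO. In the 3 Control libraries and Kdm6b-KO replicate 1, the CPM of Prg2 divided by that of Epx within a library was between 2.17 and 3.21. In Kdm6b-KO replicates 2 and 3, with 3 counts of Epx each, it was 5.67 and 14.3.

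Other eosinophil granule genes were present in the same libraries at lower counts, and were picked out after their values were seen. Prg3, the paralog of Prg2 beside it on chromosome 2, had 21 counts in Control replicate 3 and 50 in Kdm6b-KO replicate 1, against 0 to 2 in the other libraries. Reads of such paralogs can be assigned to either gene. The eosinophil ribonuclease genes Ear1, Ear2 and Ear6 had 28, 36 and 81 counts in Kdm6b-KO replicate 1, and 5, 4 and 3 in Control replicate 3. The remaining libraries held 0 to 7 counts of any of these ribonucleases. Among these picked genes, Kdm6b-KO replicate 1 was high in both granule protein and ribonuclease genes, and Control replicate 3 mainly in the granule protein genes. The receptor genes Ccr3 and Siglecf were not high in both libraries. Ccr3 had 102 counts in Control replicate 3 but 13 in Kdm6b-KO replicate 1, against 10 to 27 in the other libraries. Siglecf had 5 and 16 counts in these libraries, against 2 to 8 in the others. Il5ra, the receptor for the eosinophil growth factor IL-5, had 0 to 9 counts in every library, with 9 in Kdm6b-KO replicate 3.

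**Figure D2:**
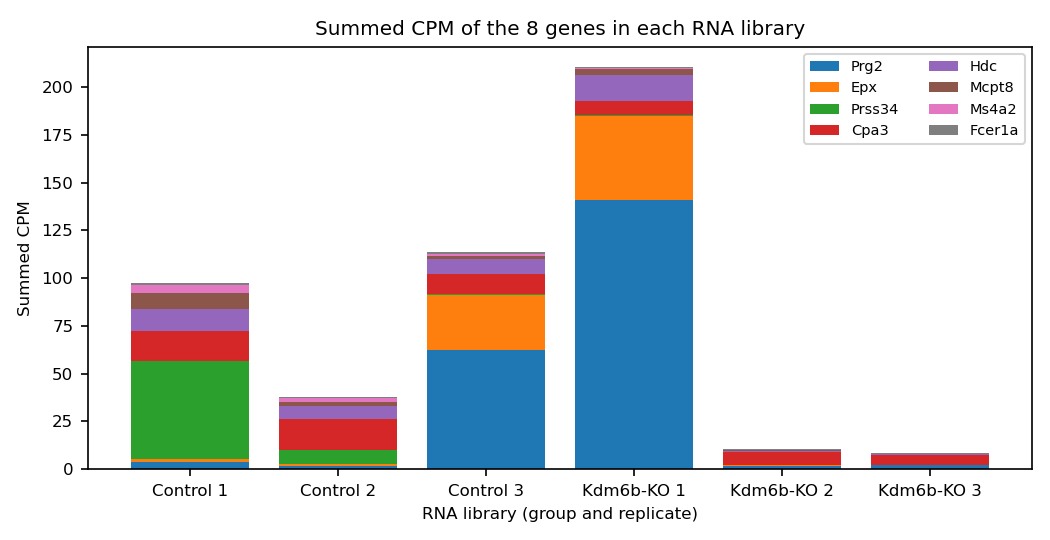
Summed CPM of the 8 genes in each RNA library, stacked by gene. Kdm6b-KO replicate 1 is highest at 210.5 CPM, mostly Prg2 and Epx, Control replicate 1 is mostly Prss34, and Kdm6b-KO replicates 2 and 3 hold 10.6 and 8.31 CPM.

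Summed over all 8 genes, the libraries held 97.5, 37.6 and 113.5 CPM in the Control libraries, and 210.5, 10.6 and 8.31 CPM in those of Kdm6b-KO. The group means of 82.9 ± 40.0 and 76.5 ± 116 CPM (SD, n = 3 each) differed by less than the spread between replicates. The genes behind the sum changed from library to library. Prss34 gave 52.6% of it in Control replicate 1, Cpa3 gave 43.2% in Control replicate 2, 59.8% in Kdm6b-KO replicate 2 and 57.7% in Kdm6b-KO replicate 3, and Prg2 with Epx gave 80.3% in Control replicate 3 and 87.8% in Kdm6b-KO replicate 1. Without Prg2, Epx and Prss34, a choice made after seeing the values, the other 5 genes summed to 41.2, 27.6 and 21.9 CPM in the Control libraries, and 25.3, 8.17 and 5.98 CPM in those of Kdm6b-KO. These sums overlapped only through Kdm6b-KO replicate 1, which lay between Control replicates 2 and 3.

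**Figure D3:**
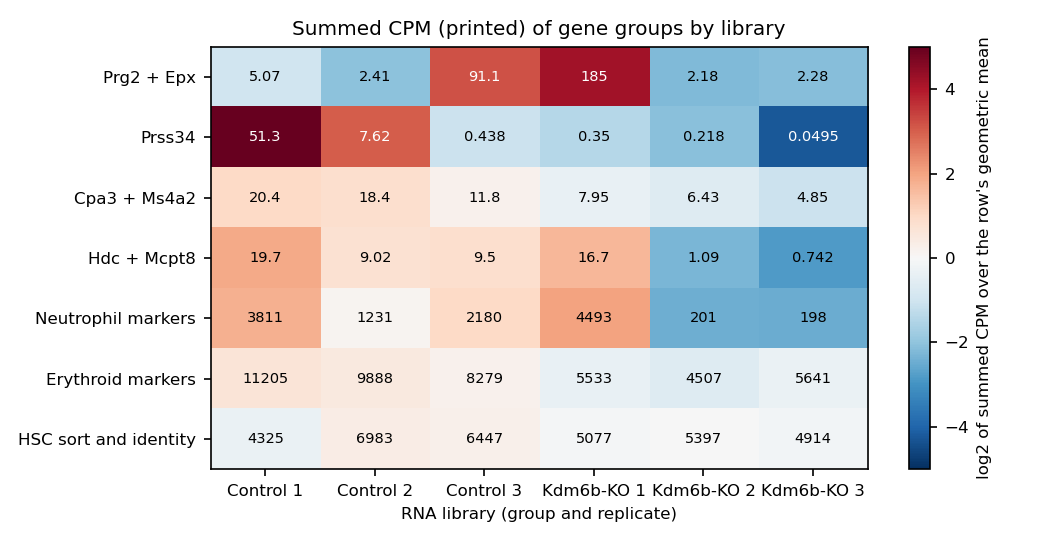
Summed CPM (printed in each cell) of 4 pairs or single genes among the 8 and of 3 marker lists, in the 6 RNA libraries. Colour is the log2 of the sum over the geometric mean of its row. Cpa3 with Ms4a2, a row mostly of Cpa3, are lower in every Kdm6b-KO library. Hdc with Mcpt8 are low in the same 2 Kdm6b-KO libraries as the neutrophil markers. Prg2 with Epx are high in Control 3 and Kdm6b-KO 1. The pairs join genes with like patterns in these data and leave out Fcer1a, so the rows only restate those patterns. The erythroid row is nearly all Car2.

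Of the 8 genes, 6 passed the filter on low counts and were fitted together with all other genes, and Fcer1a and Prss34 did not. None of the 6 was called by edgeR (quasi-likelihood, adjusted p under 0.05), where 0.461% of the 15185 genes tested were called. An unadjusted p under 0.05 was found for 2 of the 6, Ms4a2 and Cpa3, against 14.8% of all genes. By limma-voom 0 were called, where 0.277% of all genes were. By DESeq2 1 was called, Cpa3, where 3.4% of the 13706 genes with an adjusted p were. DESeq2 gave no adjusted p for Ms4a2, Prg2 and Epx, so these could not be called by it. The median log2 fold change of the 6 was -0.99, with 4 negative and 2 positive, against -0.0012 and 50.1% negative over all genes tested. Complete separation with Kdm6b-KO lower was seen for 2 of the 6 tested genes, Ms4a2 and Cpa3, and for 9.49% of all genes tested. Prss34, which was not tested, also separated, with a lowest Control value of 0.438 CPM against a highest Kdm6b-KO value of 0.350 CPM.  Ms4a2 also passed the filter through the Control libraries, where it is high. Because of this, and because the genes were listed with this contrast known, nothing is read from these counts.

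The call of single genes depended on the fit. Ms4a2 was called with library totals as the scaling, with no filter on low counts and with the replicate number as a block, where 0.659%, 1.68% and 0.58% of all genes were called. Without Kdm6b-KO replicate 1, Ms4a2, Mcpt8 and Hdc were called lower, and 0.424% of all genes were called lower in that fit. Without Control replicate 3, Ms4a2 and Prss34 were called lower, against 0.526% of all genes. With both of those libraries left out, the libraries that were high in Prg2 and Epx, Ms4a2, Mcpt8 and Hdc were called lower, against 0.463% of all genes, and Prg2 had a log2 fold change of -0.46. That alternative was added after seeing the data. In these 3 fits the named genes passed the filter on low counts through the Control libraries, where they are high. The same holds for Ms4a2 in the fit as reported and in those with library totals and the replicate block. Its Kdm6b-KO libraries held 4, 1 and 1 counts. The genes were also listed with this contrast known, so nothing is read from any of these calls.

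By the measure of likeness used, Pearson's r of log2(CPM + 1) over the 6 RNA libraries, the genes closest to Prg2 among 10288 with a mean of at least 5 CPM were H2-Eb1 (r = 0.992), Epx (0.992), Hspbap1 (0.970), Myof (0.965) and Rnf146 (0.964). The likeness rests on the 2 high libraries. Apart from Epx these genes moved over a narrow range, H2-Eb1 for example from 14.4 to 21.3 CPM.

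Genes that act with the 8 in these lineages were examined through 5 lists of 88 genes in all, chosen by function. Of the 88, 61 were tested and 0 were called (edgeR), against 0.461% of all genes. An unadjusted p under 0.05 was found for 12 of the 61, against 14.8% of all genes. DESeq2 called 1, Csf2rb, against 3.4% of the 13706 genes with an adjusted p, and limma-voom 0, against 0.277% of all genes. The groups did not overlap for 13 of the 61, 6 of them lower in Kdm6b-KO, against 20.5% of all genes tested in either direction. Their median log2 fold change was 0.10, with 26 negative and 35 positive. Without Control replicate 1, Kit, Gfi1 and Ccr3 were called, along with 3.22% of all genes. Among 21 tested lineage transcription factors, Gata2, which is required for mast cell and basophil development, had 303.6 ± 57.5 CPM in the Control libraries, and 346.8 ± 40.0 CPM in those of Kdm6b-KO (log2 fold change 0.19, SE 0.21). The zinc finger factor Ikzf2 had 276.4 ± 44.9 and 196.9 ± 44.6 CPM (log2 fold change -0.49, SE 0.22). Gata1, the partner factor of mast cell, eosinophil and red cell differentiation, had 59.3, 49.4 and 51.0 CPM in the Control libraries, and 29.3, 10.6 and 37.0 CPM in those of Kdm6b-KO. The Gata1 groups did not overlap (log2 fold change -1.04, SE 0.37, adjusted p = 0.243). Gata1 is shared with the red cell lineage, whose summed markers, mostly Car2, were lower in the same libraries. Of the 13 red cell markers tested, 10 were lower by log2 fold change, where 50.1% of all genes were. The other 3, Hbb-bt, Epor and Aqp1, were higher, and none of the 13 was called. The part of red cell transcripts in the Gata1 value was not tested.

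Among 21 tested receptor and IgE signalling genes, Kit, the stem cell factor receptor that mast cells keep and HSCs were sorted on, had 781.1, 2169 and 1865 CPM in the Control libraries, and 848.1, 1160 and 977.3 CPM in those of Kdm6b-KO. Its groups overlapped (log2 fold change -0.69, SE 0.32). The adaptor gene Lcp2 had 274.2 ± 24.3 and 313.5 ± 24.9 CPM. Csf2rb, the beta chain shared by the receptors for IL-3, IL-5 and GM-CSF, had 41.3, 60.0 and 45.4 CPM in the Control libraries, and 87.0, 80.9 and 81.0 CPM in those of Kdm6b-KO. Its groups did not overlap (log2 fold change 0.76, SE 0.20, adjusted p = 0.114). Csf2rb and Gata1, 2 of the 13 genes without overlap, were named after their values were seen. The near copy Csf2rb2 can share reads with Csf2rb, so its value is uncertain.

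Of 20 granule genes, 5 were tested. They included Srgn, the core protein that packs granule proteases, at 906.9 ± 217 and 1012 ± 218 CPM, and Slc18a2, the pump that loads amines such as histamine into vesicles, at 406.7 ± 56.4 and 291.4 ± 32.8 CPM. Cma1, the mast cell chymase, had 0 or 1 count in each library. Of the enzymes of lipid mediators and amines, 8 were tested, among them Alox5ap at 574.2 ± 189 and 479.8 ± 63.3 CPM and Ptgs1 at 217.3 ± 34.7 and 263.5 ± 22.8 CPM. Of the cytokines, 6 were tested, among them Hgf at 37.9 ± 3.74 and 32.5 ± 6.998 CPM and Ccl4 at 25.4 ± 3.79 and 31.1 ± 7.86 CPM (SD, n = 3 each throughout). None of the genes in this paragraph was called (adjusted p = 0.291 to 0.807 for Srgn, Slc18a2, Alox5ap, Ptgs1, Hgf and Ccl4 by edgeR).

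Open chromatin around the 8 genes was read from the peak lists that the authors called in each ATAC library. Read depth is unknown for these files, and the lists held 44739 to 69729 peaks. Within 50 kb of the gene spans there were 24, 27 and 49 peaks in the Control libraries and 31, 28 and 45 in the libraries titled 6bKO. The means of 33.3 ± 13.7 and 34.7 ± 9.07 peaks (SD, n = 3 each) did not differ beyond the replicate spread (two-sided exact permutation test, p = 0.9, where 0.1 is the smallest p possible). Per 10000 peaks of a library the means were 6.33 ± 1.44 and 5.51 ± 0.834 (exact permutation p = 0.6). Control replicate 3 had the most peaks near the genes and titled 6bKO replicate 3 the next most. The genes had a median of 1 to 5 peaks within 50 kb in a library, against 4 to 7 for all 21631 protein-coding genes.

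The peaks of the 6 lists merged into 82 regions near the 8 genes, of which 10 were found in all 6 libraries and 38 in 1 library. These shares, 12.2% and 46.3%, compare with 13% and 59.9% of all 149774 regions. Regions were most numerous around Hdc (22) and Prg2 (19), followed by Prss34 (13), Mcpt8 (9), Ms4a2 (8), Cpa3 (6), Epx (4) and Fcer1a (1). Many of them lay in or at other genes, since each window held 1 to 5 other protein-coding genes. Of the 7 promoter windows, 3 carried a peak in at least 1 library, against 45.1% of all windows.

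Of the 7 genes with a promoter window, Cpa3 had a peak there in the most libraries. It lay over the sequence printed above in 5 of 6 libraries, Control replicates 1 and 3 and all 3 libraries titled 6bKO, with the authors' fold enrichment at 7.17, 5.05, 8.52, 7.89 and 8.71 in that order. Control replicate 2 had no peak there. The merged region (chr3:20242109-20242436) covers the start and the GATA match. A second Cpa3 region, 44.1 kb along the gene direction from the start and beyond the end of the gene, was found in Control replicate 3 and all 3 libraries titled 6bKO. The Cpa3 promoter was thus called open in all libraries titled 6bKO, while Cpa3 RNA in Kdm6b-KO was lower than in Control. The RNA and ATAC libraries are separate samples.

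The Mcpt8 promoter window had a peak in Control replicates 2 and 3, with fold enrichments of 3.80 and 5.21, and in no library titled 6bKO. With 2 of 3 against 0 of 3 libraries, an exact test of 3 libraries against 3 cannot reach 0.05. The next regions seen in Control replicates 2 and 3 alone lay 16801 and 20016 bases from the Mcpt8 span, the first of them at the start of Ctsg, which encodes cathepsin G of neutrophils. The Hdc promoter window was overlapped by separate peaks in Control replicates 1 and 3 and by none in the libraries titled 6bKO. A region 2.71 kb upstream of that Hdc start, within the annotated span, was found in 5 libraries including all 3 titled 6bKO. So was a region 19.4 kb into the gene (chr2:126599049-126599505), with fold enrichments of 4.84 and 4.81 in Control replicates 2 and 3 and 8.12, 6.58 and 10.4 in the libraries titled 6bKO. These values were not scaled between libraries. Other regions of the 10 in the Hdc span were found in more Control libraries. One (chr2:126606058-126606548) was in 3 Control and 1 titled 6bKO library, and another (chr2:126602047-126602526) in 2 and 1.

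**Figure D4:**
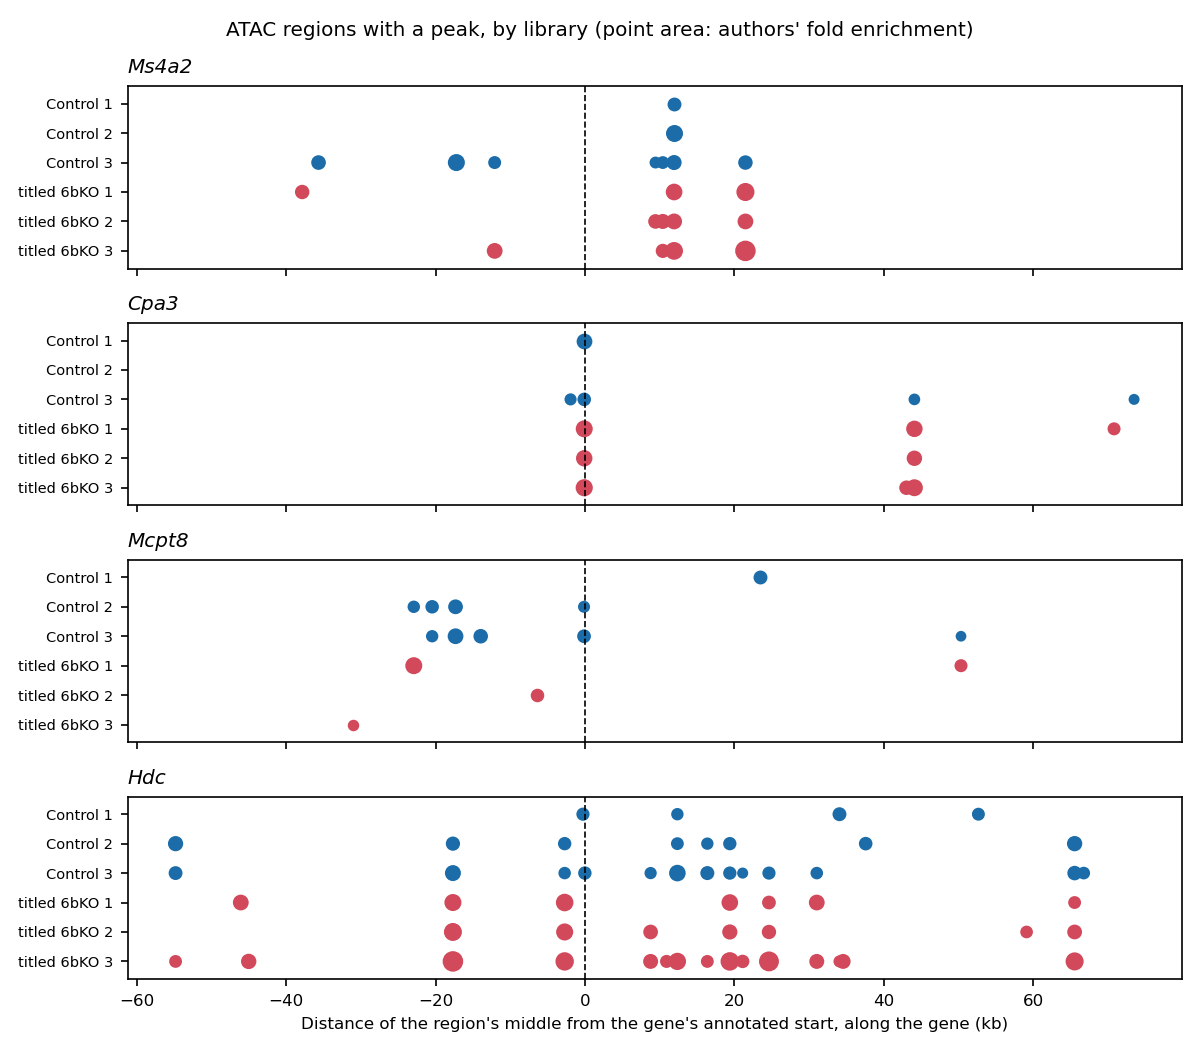
ATAC regions near Ms4a2, Cpa3, Mcpt8 and Hdc by library. The horizontal axis is the distance of the region's middle from the annotated start, along the gene in kb, and point area is the authors' fold enrichment. Ms4a2 has a shared region about 11.9 kb past its start and none at it, Cpa3 has peaks at its start in 5 libraries, and Mcpt8 has peaks at its start in Control replicates 2 and 3.

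Ms4a2 had no peak over its promoter or within its span in any library. The nearest region found in all 6 libraries (chr19:11611566-11611993) lay 11.9 kb past the start, 3524 bases beyond the end of the gene and before Ms4a6d. Its fold enrichment was 5.36, 8.54 and 6.46 in Control and 8.17, 7.26 and 9.42 in the libraries titled 6bKO. Such enrichments belong to single peaks and were not scaled between libraries. A region 21.5 kb past the Ms4a2 start, inside Ms4a6d, was found in Control replicate 3 and all 3 libraries titled 6bKO.

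Prg2 had a region at the low-coordinate end of its span (chr2:84980076-84980568) in Control replicates 2 and 3 and titled 6bKO replicate 3. The start of its paralog Prg3 was open in all 6 libraries, with fold enrichments from 5.07 to 19.1. A region 18.7 kb from Prg2 (chr2:84961384-84961729) was found in all 3 libraries titled 6bKO and in no Control library, with fold enrichments of 5.24, 9.68 and 7.77. It was the only one of the 82 regions with this pattern, which 1.3% of all regions showed, and 0 of the 82 showed the opposite pattern, against 0.288% of all regions. Around Epx, the region found in all 6 libraries lay at the start of Mks1, 10414 bases from the Epx span, and no peak lay in Epx itself. Prss34 likewise had no peak in its span or promoter window in any library, and Fcer1a had 1 peak within 50 kb, in titled 6bKO replicate 2.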

How the data were processed

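RNA was counted in 6 libraries and open chromatin in 6, and 8 immunoprecipitation and input samples were not analysed here. Raw counts of reads on Ensembl genes are as the authors deposited them. The submitters' processing notes name, without roles, Partek 6.6, HTSeq 0.8.0, STAR 2.0.4 and featureCounts 1.4.5 of Subread. The strand setting is not given in the sources used here. Reads of overlapping genes therefore cannot be told apart. The lines for unassigned reads were left out; 16.5% to 19.7% of each file was assigned to genes. The ATAC files are 1 deposited peak list per library with the authors' fold enrichment as a ratio and p and q as −log10 values; the notes name cutadapt 1.16, BWA 0.7.16a and MACS2. The build is mm10 per the labels.

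The genes and lists were chosen with earlier results of these data known. All genes were fitted with edgeR 4.0.16 (R 4.3.3): filterByExpr, TMM, robust glmQLFit and glmQLFTest on genotype, Benjamini-Hochberg adjustment over 15185 genes, threshold 0.05, tested on simulated data. Log2 fold changes have Control as the denominator, with SE as their size over the square root of F. DESeq2 1.42.0 and limma 3.58.1 were alternatives. For Ms4a2 and Prss34, with 10 counts or fewer in a group, ratios of summed counts carry exact 95% binomial intervals; reads carry no molecular identifiers. Replicate libraries differed beyond sampling noise (chi-square per degree of freedom of 14.8 or more). Beyond all 8 genes and Kdm6b, named genes were the 2 of highest mean CPM in each list without calls and the 5 most like the one of the 8 with the highest mean CPM. Fcer1g, Il5ra, Cma1, Csf2rb, Csf2rb2, Gata1, Prg3, Ear1, Ear2, Ear6 and genes called only under an alternative fall outside this rule and were chosen after their values were seen. The same holds for Siglecf and Hbb-bt. Peaks overlapping by 1 bp were merged. ATAC groups were compared with an exact permutation test in scipy 1.17.1.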

Additional observations from a re-analysis of the deposited data

How the results depend on the processing

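No gene of the 8 was called in the comparison as reported. The count was 1 with DESeq2, with library totals as scaling, with no filter on low counts and with the replicate number as a block (replicate block), and it ranged from 0 to 3 with 1 library left out. DESeq2 called Cpa3, and library totals, no filter and the block each called Ms4a2. It was 3 without Control replicate 3 and Kdm6b-KO replicate 1 together, an alternative chosen after seeing the data. The count of lineage-related genes, 0 as reported, was 1 with DESeq2 and with library totals (Csf2rb in both), 3 with no filter (Csf2rb, Alox15 and Gata1), and 0 to 3 with 1 library left out, the 3 being Kit, Gfi1 and Ccr3 without Control replicate 1. Over all genes, the count of 70 (0.461%) was 466 with DESeq2 (3.4% of 13706), 42 with limma-voom (0.277%) and 100 with library totals (0.659%). It was 576 with no filter (1.68% of 34366), and 0.58% were called with the replicate block. It was 115 with the 2 libraries left out together and 20 to 519 with 1 left out, the 519 (3.22%) without Control replicate 1. Library totals moved the median of all genes from -0.0012 to 0.15 on the log2 scale. The cause of these differences was not tested.

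The median log2 fold change of -0.99 ranged from -5.03 to -0.67 with 1 library left out, and was -4.41 with the 2 left out, -2.12 with limma-voom and -1.54 with the replicate block. The genes in it changed: Prss34 entered without Control replicate 3, without each Kdm6b-KO replicate and with the 2 left out, where Epx dropped out, and both Prss34 and Fcer1a entered with no filter. Over only the genes tested with all libraries, the range with 1 left out was -4.27, without Kdm6b-KO replicate 1, to -0.63, and the value with the 2 left out was -3.48. Same-numbered libraries of the 2 groups had correlations of deviations of 0.0324, 0.161 and -0.127, so the numbers were not taken to pair them. The block gave 88 calls over all genes. The log2 fold change of Prg2 reversed to -0.42 with limma-voom and to -0.46 with the 2 libraries left out, and ranged from -3.52 to 4.16 with 1 left out. That of Epx reversed to -2.06 with limma-voom and to -0.93 with the replicate block, and ranged from -5.56 to 3.90; Epx was under the filter with the 2 libraries left out. Adjusted p ranged from 0.00144 to 0.308 for Ms4a2 and from 0.0220 to 0.409 for Cpa3 over 12 alternatives, all with a negative log2 fold change, where DESeq2 gave no adjusted p for Ms4a2. The ratio of summed CPM, 0.923 as reported, ranged from 0.114 to 1.33 with 1 library left out.

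The difference in peaks within 50 kb, 1.33, ranged from -3.83 to 9.17 with 1 ATAC library left out. Per 10000 peaks the difference of -0.81 ranged from -1.45 to -0.034 with 1 left out. It was negative under all 10 alternatives but nearly vanished, at -0.034, without Control replicate 3. Counts of 1 to 8 in each Kdm6b-KO library limit Ms4a2, Fcer1a and Prss34, and peak lists without read depth limit every ATAC value.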
